A study of Mus musculus with 14 samples.

Results

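The genes that build, import, move and store cholesterol were described in 14 RNA-seq libraries from mouse ovaries. The set held 30 named genes, found by gene symbol among the 56748 genes of the deposited table, and all 30 were among the 18006 genes tested. They comprised 7 enzymes of the mevalonate branch, 11 enzymes of sterol synthesis, 5 genes of SREBP control, 4 of uptake and intracellular transport, 2 of efflux and 1 of storage. All mice were female, wild-type and of the C57BL/6J strain. There were 4 libraries from mice given DSS (dextran sulfate sodium, a polymer that inflames the colon) and sampled on day 7, numbered 75, 80, 81 and 82, and 3 control libraries of day 7, numbered 10, 51 and 53. Another 4 DSS libraries were of day 89, labelled R29, R38, R78 and R89, and 3 control libraries of day 89 were labelled R123, R124 and R126. Day 7 stands for the end of the DSS course and day 89 for a rest after it, as far as the series text and the labels go; neither gives a dose, the age of the mice or the stage of the estrous cycle. The labels do not say that each library is a separate animal, so p-values measure the spread between libraries. Where values of single libraries are listed, they follow the order of the numbers above.

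Cholesterol is built from acetyl-CoA through mevalonate, farnesyl diphosphate and squalene to lanosterol, which a chain of sterol-modifying enzymes turns into cholesterol. The transcription factor SREBP2 switches these enzymes on together when membrane cholesterol is low: SCAP escorts it to the Golgi for cleavage, and the INSIG proteins hold it back when sterol is plentiful. In the ovary, luteal, theca and interstitial cells use cholesterol as the substrate of steroid hormones, take much of it from high-density lipoprotein through the receptor SR-BI, and store the surplus as esters in lipid droplets.

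The libraries held 15256018 to 18505144 reads each, recovered from the unit of the table, FPKM (fragments per kilobase of gene length, scaled to depth). Mitochondrially encoded genes took 9.96% to 14.2% of reads in 3 libraries, DSS 75 and controls 10 and 53, all of day 7, and 0.479% to 4.04% in the other 11. Granulosa, luteal, theca and oocyte markers were present in every group, as the ovary label states. Retinal markers were checked because the extraction text speaks of retinas: 9 of 10 stayed under 1 FPKM in every library.

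The members spanned a wide range of levels, given here per gene length as mean FPKM over the 14 libraries. Scarb1, which encodes SR-BI, was highest at 86.1 FPKM, followed by Hmgcs1 at 80.6, Soat1 at 67.5, Npc2 at 63.3, Scap at 56.4 and Hsd17b7 at 49.5 FPKM. Scarb1 and Hmgcs1 overlapped widely, with 20.8 to 204 FPKM and 27.2 to 159.7 FPKM. On GRCm38, by gene ID in GENCODE M21, Scarb1 lies at chr5:125277087-125341094 on the minus strand and Hmgcs1 at chr13:119690379-119708260 on the plus strand, both protein-coding. The lowest means belonged to Npc1 (4.66 FPKM), Tm7sf2 (4.21), Abcg1 (4.02) and Fdps (1.32). Fdps rested on as few as 28 reads in a library and Idi1 on as few as 32. Idi1 also has 5 processed pseudogenes in the table, of which Idi1-ps1 reached 1.66 FPKM; how reads with several matches were counted is not given, so Idi1 levels are uncertain. Between the lowest and the highest library, Scap varied 1.97-fold and Ebp also 1.97-fold, whereas Idi1 varied 22.9-fold and Hsd17b7 37.6-fold.

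**Figure D1:**
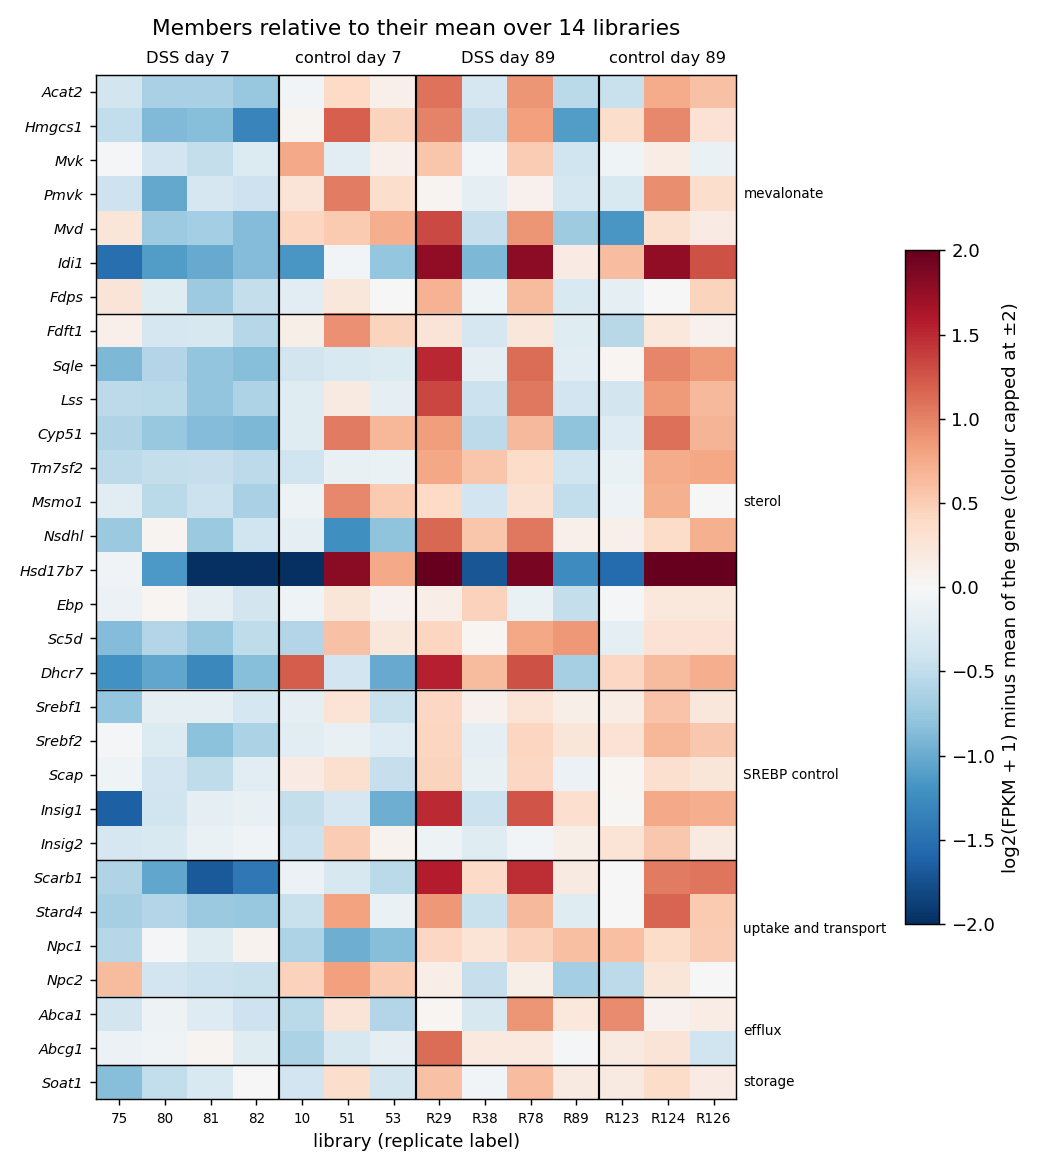
Heat map of the 30 members, 1 row per gene in order of role, and the 14 libraries, 1 column each, coloured by log2(FPKM + 1) minus the mean of the gene over all libraries (blue below, red above, colour capped at 2). The 4 DSS libraries of day 7 are blue for most enzymes, and R29, R78, R124 and R126 of day 89 are red.

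Promoter sequence was set beside the members that led the comparison of DSS with control at day 7, since SREBP and the factor NF-Y are known to act on such promoters. RefSeq promoters on GRCm38.p6 were at hand for 23 of the 30 members, and the 250 bases before each start site were searched on both strands for the sterol element TCACNCCAC and the CCAAT box that NF-Y binds. Hmgcs1 was the only one of the 23 with the sterol element, at position -137 counted back from the start site, beside 3 CCAAT boxes (ATTGG, the other strand) at -237, -176 and -45. Its sequence is shown with that of Pmvk, the member with the smallest p at day 7 and no sterol element in its window, and that of Hsd17b7, the most variable member, chosen after its values were seen. Matches are in capitals.
Hmgcs1, chr13:119690101-119690350, plus strand: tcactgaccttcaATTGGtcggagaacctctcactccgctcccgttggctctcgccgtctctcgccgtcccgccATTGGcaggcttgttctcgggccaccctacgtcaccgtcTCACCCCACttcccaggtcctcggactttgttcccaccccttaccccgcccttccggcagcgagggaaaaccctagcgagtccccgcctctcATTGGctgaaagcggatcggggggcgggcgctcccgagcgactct
Pmvk, chr3:89454291-89454540, plus strand, the upstream of its 2 promoters: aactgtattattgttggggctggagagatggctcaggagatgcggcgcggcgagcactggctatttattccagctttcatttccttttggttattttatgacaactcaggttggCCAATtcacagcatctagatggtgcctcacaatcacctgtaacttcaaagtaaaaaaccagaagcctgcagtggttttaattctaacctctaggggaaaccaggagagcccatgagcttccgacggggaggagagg
Hsd17b7, chr1:169969206-169969455, minus strand: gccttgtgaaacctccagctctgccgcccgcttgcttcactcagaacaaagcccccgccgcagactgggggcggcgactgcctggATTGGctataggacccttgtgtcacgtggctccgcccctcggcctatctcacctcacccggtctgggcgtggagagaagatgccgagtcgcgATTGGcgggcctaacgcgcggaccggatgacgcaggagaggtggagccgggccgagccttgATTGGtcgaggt
Pmvk held 1 CCAAT box, at -136, and Hsd17b7 held 3, at -165, -73 and -12. The sterol element was found for 331 of 27025 genes in the table (1.22%). A CCAAT box stood in the window of 20 of the 23 members (87.0%) and of 14 of the 15 synthesis enzymes with a promoter (93.3%), against 37.5% of all genes. These are matches of letters in a window, not measured binding sites. Only full matches were counted, so variants of the sterol element would be missed.

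At day 7, the question was whether the cholesterol genes differed between ovaries of DSS mice and of controls at the end of the DSS course. Most of the synthesis enzymes had lower values in DSS ovaries: the FPKM summed over the 18 enzymes was 189 ± 30.6 in DSS ovaries (SD, n = 4) and 410 ± 123.4 in control ovaries (SD, n = 3). It lay between 161 and 232 in the DSS libraries and between 303 and 545 in the control libraries. No member passed an adjusted p of 0.05 in limma, where 0.0333% of all genes did (6 of 18006); voom on the recovered reads called 0 members as well. At an unadjusted p under 0.05, 9 members were lower in DSS ovaries and 1 higher, beside 7.58% and 8.46% of all genes. The log2 fold change of FPKM + 1 was below 0 for 25 of 30 members, with a median of -0.48 beside 0.00 for all genes, and for 17 of the 18 enzymes, with a median of -0.75. For 12 members every DSS library lay below every control library, beside 5.87% of all genes, and for 1 member every DSS library lay above, beside 6.24%. In bulk ovary, fewer cells of a type and less RNA per cell cannot be told apart.

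**Figure D2:**
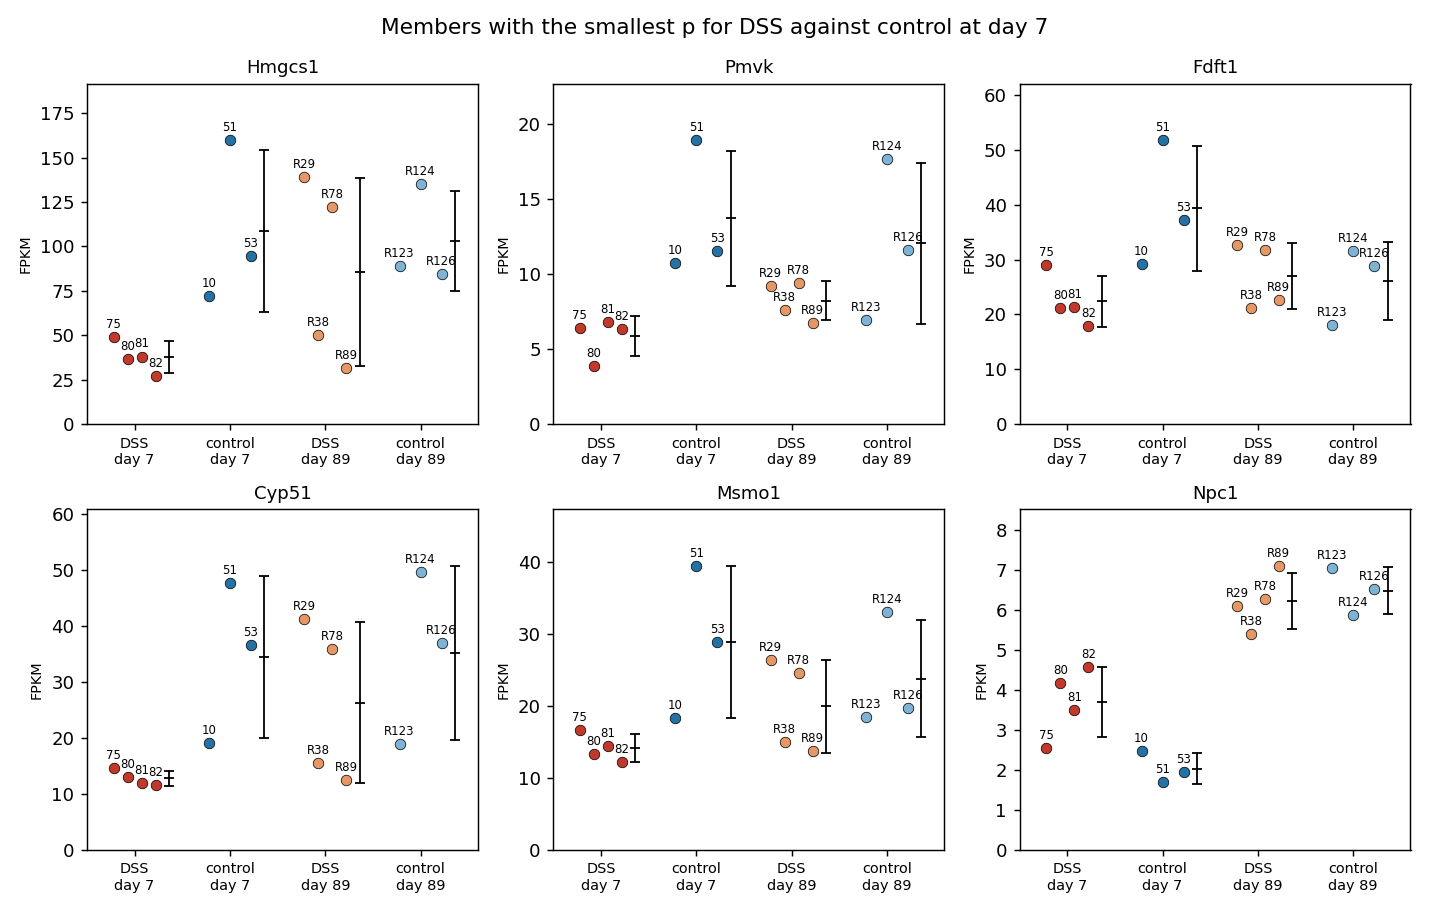
FPKM of the 6 members with the smallest p for DSS against control at day 7, 1 point per library with its label, by group; bars give mean and SD. Hmgcs1, Pmvk, Fdft1, Cyp51 and Msmo1 lie lower in all 4 DSS libraries of day 7 than in the 3 controls of that day, Npc1 higher.

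In the mevalonate branch, 7 of 7 fold changes were below 0 and 3 had an unadjusted p under 0.05. Pmvk, the kinase that phosphorylates phosphomevalonate, had 6.41, 3.86, 6.82 and 6.35 FPKM in DSS ovaries, against 10.8, 18.9 and 11.5 FPKM in controls. The lowest control thus exceeded the highest DSS library, and the log2 fold change was -1.09 (adjusted p = 0.110, SE 0.27) in limma. Hmgcs1 makes HMG-CoA, the precursor of mevalonate, and its promoter carries the sterol element shown above. It had 48.8, 36.8, 38.02 and 27.2 FPKM in DSS ovaries, against 72.0, 159.7 and 94.7 FPKM in controls, at a log2 fold change of -1.45 (adjusted p = 0.155, SE 0.44). The groups did not overlap, although control 51 alone lay above 100 FPKM. Mvd, the decarboxylase that yields isopentenyl diphosphate, had 21.9, 10.7, 11.1 and 9.61 FPKM in DSS ovaries and 24.96, 26.97 and 30.9 FPKM in controls. DSS 75 was close to the controls and the other 3 DSS libraries were near 10 FPKM; the log2 fold change was -1.07 (adjusted p = 0.291, SE 0.47). Acat2, the cytosolic thiolase that opens the pathway, ranged over 8.24 to 11.1 FPKM in DSS ovaries and 14.1 to 19.7 FPKM in controls, again without overlap. The ranges of Mvk, the first kinase of mevalonate, overlapped, at 8.41 to 11.9 FPKM in DSS ovaries and 10.2 to 21.1 FPKM in controls. So did those of the isomerase Idi1, at 0.678 to 1.63 FPKM in DSS ovaries and 1.14 to 3.63 FPKM in controls, and of the farnesyl diphosphate synthase Fdps, at 0.352 to 1.68 FPKM in DSS ovaries and 0.917 to 1.62 FPKM in controls.

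In sterol synthesis, 10 of 11 fold changes were below 0 and 4 had an unadjusted p under 0.05. Fdft1, the squalene synthase that commits carbon to sterols, had 29, 21.2, 21.4 and 17.9 FPKM in DSS ovaries, against 29.2, 51.7 and 37.2 FPKM in controls. The gap between the groups was narrow, between DSS 75 and control 10, with a log2 fold change of -0.77 (adjusted p = 0.166, SE 0.24) in limma. Cyp51, which removes a methyl group from lanosterol, had 14.6, 13.1, 11.9 and 11.7 FPKM in DSS ovaries, against 19, 47.7 and 36.5 FPKM in controls. The 4 DSS libraries were tight and the controls spread out above them, for a log2 fold change of -1.27 (adjusted p = 0.179, SE 0.42). Msmo1, the oxidase that acts on the next methyl groups, had 16.6, 13.3, 14.4 and 12.2 FPKM in DSS ovaries, against 18.3, 39.4 and 28.8 FPKM in controls. Here too control 10 was the lowest control and DSS 75 the highest DSS library, and the log2 fold change was -0.92 (adjusted p = 0.157, SE 0.28). Sc5d, a late sterol desaturase, had 11.1, 13.6, 12.1 and 14.6 FPKM in DSS ovaries and 13.6, 32.1 and 24.7 FPKM in controls. Control 10 fell within the DSS range, and the log2 fold change was -0.75 (adjusted p = 0.196, SE 0.26).

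Among the other sterol enzymes, Sqle (squalene epoxidase), Lss (lanosterol synthase) and Tm7sf2 (a sterol reductase) did not overlap between the groups. Their log2 fold changes of FPKM + 1 were -0.47, -0.53 and -0.27 (adjusted p = 0.554, 0.542 and 0.643 in limma). Sqle had 5.09, 6.59, 5.57 and 5.33 FPKM in DSS ovaries and 7.84, 8.21 and 8.47 FPKM in controls. Lss ranged over 2.02 to 2.62 FPKM in DSS ovaries and 3.42 to 4.88 FPKM in controls, and Tm7sf2 had 2.39, 2.52, 2.54 and 2.39 FPKM in DSS ovaries and 2.71, 3.41 and 3.44 FPKM in controls. Dhcr7, the reductase of the last step, had 5.86, 6.69, 5.51 and 7.82 FPKM in DSS ovaries and 35.7, 11.1 and 6.93 FPKM in controls, where control 10 alone was far above the rest. Ebp, a sterol isomerase, overlapped at 13.4 to 18.3 FPKM in DSS ovaries and 16.7 to 21.2 FPKM in controls. Nsdhl, a dehydrogenase of the demethylation steps, was the enzyme with a fold change above 0, at 0.29 (adjusted p = 0.672, SE 0.30). Hsd17b7, a reductase of the same steps that also turns estrone into estradiol, had 21.5, 9.66, 4.60 and 4.05 FPKM in DSS ovaries and 4.56, 81.4 and 39.2 FPKM in controls. The 3 controls differed among themselves by more than the groups did, and the 95% interval of the log2 fold change reached from -4.21 to 1.12.

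The SREBP control genes differed less. Fold changes were below 0 for 4 of 5 with a median of -0.26, and none had an unadjusted p under 0.05. Srebf2 encodes the SREBP of the cholesterol genes and had 23.3, 19.7, 13.2 and 15.1 FPKM in DSS ovaries, against 20.5, 21.7 and 20.02 FPKM in controls. Its log2 fold change was -0.24 (adjusted p = 0.578, SE 0.19), with a 95% interval from -0.65 to 0.18. Srebf1, the SREBP of lipid synthesis more broadly, had 9.03, 14.2, 13.98 and 12.4 FPKM in DSS ovaries and 14.2, 19.6 and 11.6 FPKM in controls. Scap overlapped at 38.4 to 51.8 FPKM in DSS ovaries and 39.6 to 68.7 FPKM in controls. Insig1, itself an SREBP target, had 5.86, 15.04, 17.5 and 18.2 FPKM in DSS ovaries and 14.2, 15.8 and 9.77 FPKM in controls. Its log2 fold change was 0.01, with a 95% interval from -0.94 to 0.95. Insig2, its homologue, had 8.61, 8.90, 10.1 and 10.6 FPKM in DSS ovaries and 8.05, 16.3 and 11.9 FPKM in controls.

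Of the transport genes, Npc1 was higher in DSS ovaries. It encodes the membrane protein that exports cholesterol from lysosomes and had 2.56, 4.16, 3.50 and 4.58 FPKM in DSS ovaries, against 2.46, 1.69 and 1.95 FPKM in controls. All 4 DSS libraries lay above the controls, DSS 75 by a small margin, and the log2 fold change was 0.62 (adjusted p = 0.123, SE 0.16) in limma. Its soluble partner Npc2, which hands cholesterol to it, had 93.4, 45.7, 44.1 and 43.8 FPKM in DSS ovaries, against 82.6, 107 and 85.8 FPKM in controls. Here DSS 75 sat among the controls while the other 3 DSS libraries were at about the same low level, and the log2 fold change was -0.76 (adjusted p = 0.235, SE 0.29). Scarb1 had 45.0, 32.9, 20.8 and 24.7 FPKM in DSS ovaries, against 62.7, 54.7 and 46.9 FPKM in controls. The groups did not overlap, and the log2 fold change was -0.86 (adjusted p = 0.281, SE 0.37). Stard4, a cytosolic sterol carrier, ranged over 3.02 to 3.50 FPKM in DSS ovaries and 3.96 to 10.8 FPKM in controls, without overlap. Both efflux transporters overlapped between the groups, at log2 fold changes of 0.01 for Abca1 and 0.29 for Abcg1. Abca1 ranged over 21.03 to 26.5 FPKM in DSS ovaries and 18.5 to 34 FPKM in controls. Abcg1 had 3.43, 3.603, 4.02 and 3.07 FPKM in DSS ovaries and 2.11, 2.87 and 3.20 FPKM in controls. Soat1, which esterifies cholesterol for storage, had 35.6, 45.7, 52.3 and 64.8 FPKM in DSS ovaries and 49.4, 82.9 and 49.9 FPKM in controls, which overlapped.

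The calls at day 7 depended on DSS 75. Without DSS 75, limma called 4 members: Pmvk at a log2 fold change of -1.13 (adjusted p = 0.0415), Fdft1 at -0.90 (adjusted p = 0.0483), Npc2 at -1.02 (adjusted p = 0.0279) and Npc1 at 0.75 (adjusted p = 0.0139). All genes called were then 1221. With DSS 75 and controls 10 and 53 all left out, control 51 remains alone and is assumed to vary like the other groups; 4 members were then called among 915 genes: Pmvk, Fdft1 and Sc5d lower and Npc1 higher. Among the high-share libraries (1 DSS, 2 control) 16 of 18 enzymes were lower in DSS, with a median log2 difference of -0.41. Among the others (3 DSS, 1 control) 17 of 18 were lower, with a median of -1.02, but 3 enzymes differed in sign. Hsd17b7 was at 0.59 among the high-share libraries and -3.62 among the others, Fdps at 0.38 and -0.71, and Nsdhl at -0.24 and 0.86. Of the other members, Srebf2, Scap, Insig1, Npc2 and Abca1 differed in sign too. Cell type markers were summed as well. Of the lists given here, only the macrophage, oocyte and erythroid sums did not overlap between the groups. Of the luteal list, 10 of 10 tested, the summed level was 2172 to 3340 FPKM in DSS ovaries and 2870 to 3623 FPKM in controls. The theca and interstitial list, 8 of 8 tested, summed to 529 to 1305 FPKM in DSS ovaries and 1135 to 1344 FPKM in controls. It shares Cyp11a1, the enzyme that opens steroid synthesis, with the luteal list, and its 7 other genes, summed apart after the values were seen, were at 286 to 362 FPKM in DSS ovaries and 347 to 445 FPKM in controls. The macrophage list, 10 of 10 tested, was at 440 to 599 FPKM in DSS ovaries and 247 to 321 FPKM in controls. The oocyte list, 10 of 10 tested, was at 333 to 536 FPKM in DSS ovaries and 161 to 279 FPKM in controls, and the erythroid list, 5 of 7 tested, at 409.9 to 726 FPKM in DSS ovaries and 49.9 to 309.5 FPKM in controls. The granulosa list, 10 of 10 tested, overlapped, at 834 to 3477 FPKM in DSS ovaries, lowest in DSS 75, and 1223 to 2129 FPKM in controls. Scarb1 belongs to the luteal list. The part of these markers in the members' differences was not tested.

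At day 89, after the rest, no member passed the threshold between DSS and control ovaries, where 0.00555% of all genes did (1 of 18006). At an unadjusted p under 0.05, 1 member was lower in DSS ovaries in limma and 1 in voom, beside 2.21% of all genes lower and 2.37% higher in limma. Fold changes were below 0 for 18 of 30 members, with a median of -0.06. The summed FPKM of the 18 enzymes was 419 ± 216 in DSS ovaries (SD, n = 4) and 470 ± 174 in control ovaries (SD, n = 3). Insig2 had 10.3, 9.32, 10.7 and 12.2 FPKM in DSS ovaries, against 13.7, 16.7 and 12.8 FPKM in controls. It was the 1 member whose libraries did not overlap, beside 4.25% of all genes lower without overlap, and its log2 fold change was -0.40 (adjusted p = 0.923, SE 0.19). Pmvk had 9.22, 7.58, 9.40 and 6.70 FPKM in DSS ovaries and 6.95, 17.7 and 11.6 FPKM in controls, where R123 lay within the DSS range. Its log2 fold change was -0.43 (adjusted p = 0.923, SE 0.27), and the 95% interval, -1.01 to 0.16, includes 0 and a difference nearly as large as at day 7. Sc5d had 28.6, 21.8, 36.8 and 39.1 FPKM in DSS ovaries and 18.2, 26.1 and 25.8 FPKM in controls, giving a log2 fold change of 0.40 (adjusted p = 0.923, SE 0.26). Abcg1, which exports cholesterol to high-density lipoprotein, had 9.38, 4.53, 4.48 and 3.72 FPKM in DSS ovaries and 4.44, 4.75 and 2.64 FPKM in controls. R29 stood alone at the top and R126 at the bottom, and the log2 fold change was 0.36 (adjusted p = 0.923, SE 0.24). Srebf2 had 32.9, 21.2, 32.8 and 28.7 FPKM in DSS ovaries and 29.7, 39.0 and 35.4 FPKM in controls, for a log2 fold change of -0.27 (adjusted p = 0.923, SE 0.19). Cyp51 had 41.2, 15.4, 35.9 and 12.5 FPKM in DSS ovaries and 18.8, 49.7 and 37.01 FPKM in controls. Both groups held a low and a high level, and the log2 fold change was -0.47 (adjusted p = 0.929, SE 0.42), with an interval of -1.37 to 0.42.

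**Figure D3:**
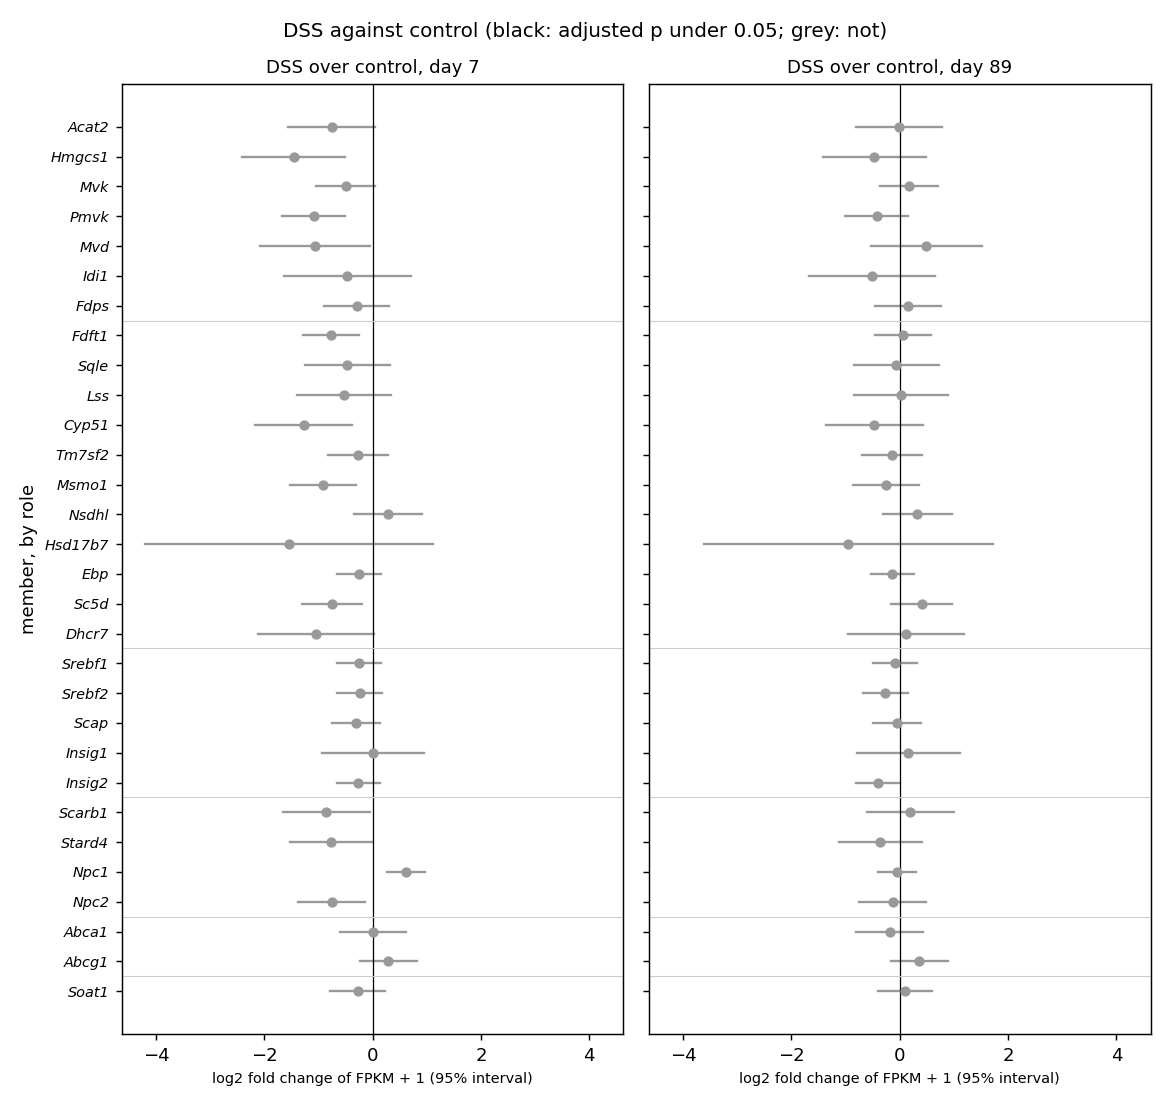
Log2 fold change of FPKM + 1 for each member, DSS over control, at day 7 (left) and day 89 (right), with 95% intervals from limma; grey marks an adjusted p of 0.05 or more. At day 7, 25 of 30 points lie below 0 and Npc1 lies above it; at day 89 the points spread around 0 with 18 of 30 below.

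For Hmgcs1, Msmo1 and Fdft1, which led at day 7, the 95% intervals at day 89 spanned no change. The fit shares its spread over all groups, so each gene had the same SE on both days. The interval was -0.86 to 0.36 for Msmo1 and -0.46 to 0.58 for Fdft1. Hmgcs1 had 139, 50.0, 122 and 31.5 FPKM in DSS ovaries and 89.0, 135 and 84.4 FPKM in controls, with a 95% interval of the log2 fold change from -1.42 to 0.48. Msmo1 had 26.4, 14.96, 24.5 and 13.8 FPKM in DSS ovaries and 18.4, 33.1 and 19.7 FPKM in controls, and Fdft1 32.6, 21.2, 31.7 and 22.6 FPKM in DSS ovaries and 17.99, 31.6 and 28.8 FPKM in controls. In each of the 3 genes the ranges overlapped. The Npc1 libraries overlapped, with 6.10, 5.41, 6.28 and 7.10 FPKM in DSS ovaries and 7.05, 5.87 and 6.53 FPKM in controls, and an interval from -0.40 to 0.30.

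Whether the DSS effect itself differed between the days was tested as the difference of the 2 log2 fold changes, day 89 minus day 7. No member and no gene at all passed the threshold (0% of 18006), in limma or in voom. In limma 1521 genes had an unadjusted p under 0.05, 4.37% of genes higher and 4.08% lower, and 4 members did. The effect was higher at day 89 for Sc5d by 1.15 (SE 0.37, adjusted p = 0.517), for Fdft1 by 0.83 (SE 0.34, adjusted p = 0.572) and for Mvd by 1.56 (SE 0.67, adjusted p = 0.574). It was lower for Npc1, at -0.67 (SE 0.23, adjusted p = 0.528). The difference was above 0 for 25 of 30 members, with a median of 0.42 beside -0.01 for all genes. Both days' comparisons enter that difference, so it is no further evidence for either.

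Day 89 was next set against day 7 within each treatment. In DSS ovaries, 12 of 30 members rose and none fell in limma, where 21.4% of all genes passed in either direction (3860 of 18006). Fold changes were above 0 for 29 of 30 members, with a median of 0.76 beside 0.00 for all genes. For 10 members every day 89 library lay above every day 7 library, beside 12.2% of all genes, and for none did they lie below, beside 12.7%. In control ovaries, 4 of 30 members rose and none fell, beside 31.8% of all genes (5732 of 18006). The members' share there was under the background. The libraries of 8 members were higher without overlap, beside 22.8% of all genes, and those of 2, Npc2 and Mvd, were lower, beside 22.2%. The DSS libraries of day 7 stand in both the day 7 DSS comparison and the day comparison, so the low day 7 values enter both. Day cannot be told apart from whatever else differed between the sets of libraries: the shortest of 3 equal classes of gene length exceeded the longest by 0.14 to 0.38 in DSS and 0.12 to 0.36 in control libraries of day 7, on the log2 scale relative to each gene's mean. On day 89 that difference was -0.29 to 0.09 in DSS and -0.35 to -0.32 in control libraries. With this trend removed, 12 members passed in DSS ovaries, beside 19% of all genes, and 3 in control ovaries, beside 28.9%.

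**Figure D4:**
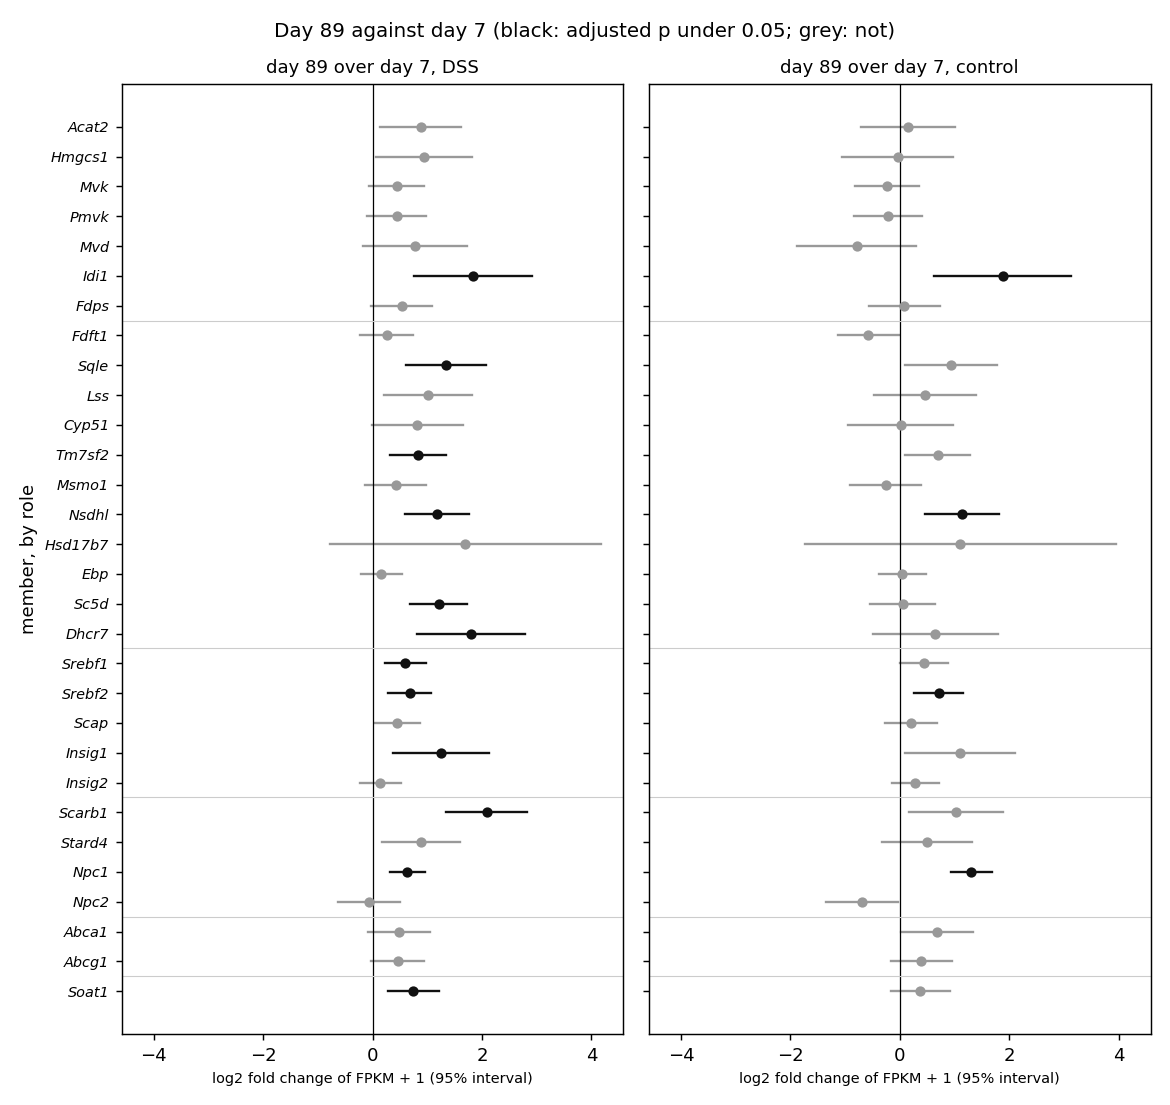
Log2 fold change of FPKM + 1 for each member, day 89 over day 7, in DSS ovaries (left) and control ovaries (right), with 95% intervals from limma; black marks an adjusted p under 0.05. In DSS ovaries 12 members are black, all above 0; in control ovaries Npc1, Nsdhl, Srebf2 and Idi1 are.

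Scarb1 had the smallest p among the members in DSS ovaries. It had 204, 89.3, 192 and 77.5 FPKM at day 89, against 45.0, 32.9, 20.8 and 24.7 FPKM at day 7, and rose on the log2 scale by 2.08 (adjusted p = 0.00237, SE 0.35). Every day 89 library exceeded every day 7 library, R29 and R78 by far. In control ovaries it had 68.6, 142 and 145 FPKM at day 89, against 62.7, 54.7 and 46.9 FPKM at day 7, and the log2 fold change was 1.03 (adjusted p = 0.0627, SE 0.40). Npc1 rose in both treatments. It had 6.10, 5.41, 6.28 and 7.10 FPKM at day 89 in DSS ovaries, against 2.56, 4.16, 3.50 and 4.58 FPKM at day 7, that is, a log2 fold change of 0.64 (adjusted p = 0.0118, SE 0.15). In control ovaries it had 7.05, 5.87 and 6.53 FPKM at day 89, against 2.46, 1.69 and 1.95 FPKM at day 7, at a log2 fold change of 1.31 (adjusted p = 0.000402, SE 0.17). The day 89 libraries of both treatments were close together, and the control libraries of day 7 were lowest. Soat1 rose in DSS ovaries, with 98.3, 62.5, 100.2 and 73.2 FPKM at day 89, against 35.6, 45.7, 52.3 and 64.8 FPKM at day 7, giving a log2 fold change of 0.75 (adjusted p = 0.0283, SE 0.22). DSS 82 of day 7 and R38 of day 89 overlapped. Its control libraries gave 73.7, 83.6 and 73.1 FPKM at day 89 and 49.4, 82.9 and 49.9 FPKM at day 7, which overlapped as well.

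In the mevalonate branch Idi1, which converts isopentenyl diphosphate to its isomer, was the 1 of 7 enzymes that rose, in both treatments. In DSS ovaries it had 15.4, 1.56, 15.5 and 4.39 FPKM at day 89, against 0.678, 1.21, 1.37 and 1.63 FPKM at day 7, for a log2 fold change of 1.83 (adjusted p = 0.0221, SE 0.50). R38 of day 89 lay within the day 7 range. In control ovaries it had 6.31, 15.4 and 10.6 FPKM at day 89, against 1.14, 3.63 and 1.80 FPKM at day 7, without overlap and with a log2 fold change of 1.88 (adjusted p = 0.0256, SE 0.58). Its pseudogene copies bear on these values as said above. Hmgcs1 did not pass in either treatment, at log2 fold changes of 0.95 (adjusted p = 0.111, SE 0.41) in DSS and -0.03 (adjusted p = 0.966, SE 0.47) in control ovaries.

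In sterol synthesis 5 of 11 enzymes rose in DSS ovaries and 1 in control ovaries. Sc5d had 28.6, 21.8, 36.8 and 39.1 FPKM at day 89, against 11.1, 13.6, 12.1 and 14.6 FPKM at day 7, in DSS ovaries, that is, a log2 fold change of 1.21 (adjusted p = 0.00532, SE 0.24). The groups were far apart, while in control ovaries 18.2, 26.1 and 25.8 FPKM at day 89 lay within the 13.6, 32.1 and 24.7 FPKM of day 7. Nsdhl had 19.7, 12.6, 18.2 and 8.96 FPKM at day 89, against 4.58, 8.62, 4.56 and 6.06 FPKM at day 7, in DSS ovaries, at a log2 fold change of 1.17 (adjusted p = 0.0110, SE 0.27). In control ovaries it had 8.95, 11.03 and 14.1 FPKM at day 89, against 7.14, 2.98 and 4.30 FPKM at day 7, giving a log2 fold change of 1.13 (adjusted p = 0.0158, SE 0.32). Nsdhl was thus the sterol enzyme that rose in both treatments, without overlap in either. Sqle had 31.4, 9.10, 23.7 and 8.77 FPKM at day 89, against 5.09, 6.59, 5.57 and 5.33 FPKM at day 7, in DSS ovaries, for a log2 fold change of 1.34 (adjusted p = 0.0153, SE 0.34). R38 and R89 were only slightly above day 7, and the control libraries, with 10.7, 21.4 and 19.6 FPKM at day 89 against 7.84, 8.21 and 8.47 FPKM at day 7, did not overlap either.

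Dhcr7 had 45.5, 23.6, 37.2 and 9.05 FPKM at day 89, against 5.86, 6.69, 5.51 and 7.82 FPKM at day 7, in DSS ovaries, that is, a log2 fold change of 1.80 (adjusted p = 0.0165, SE 0.46). The control libraries, with 20.2, 23.6 and 25.2 FPKM at day 89 and 35.7, 11.1 and 6.93 FPKM at day 7, overlapped because control 10 was the highest of them. Tm7sf2 had 7.39, 6.16, 5.28 and 2.72 FPKM at day 89, against 2.39, 2.52, 2.54 and 2.39 FPKM at day 7, in DSS ovaries, at a log2 fold change of 0.82 (adjusted p = 0.0279, SE 0.24). R89 was only just above day 7. In control ovaries it had 3.48, 7.19 and 7.32 FPKM at day 89, against 2.71, 3.41 and 3.44 FPKM at day 7, giving a log2 fold change of 0.69 (adjusted p = 0.0709, SE 0.28) that did not pass.

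In SREBP control 3 of 5 genes rose in DSS ovaries and 1 in control ovaries. Srebf2 had 32.9, 21.2, 32.8 and 28.7 FPKM at day 89, against 23.3, 19.7, 13.2 and 15.1 FPKM at day 7, in DSS ovaries, for a log2 fold change of 0.68 (adjusted p = 0.0195, SE 0.18). DSS 75 of day 7 exceeded R38 of day 89. In control ovaries it had 29.7, 39.0 and 35.4 FPKM at day 89, against 20.5, 21.7 and 20.02 FPKM at day 7, without overlap, that is, a log2 fold change of 0.71 (adjusted p = 0.0202, SE 0.21). Srebf1 had 21.9, 17.2, 19.7 and 17.6 FPKM at day 89, against 9.03, 14.2, 13.98 and 12.4 FPKM at day 7, in DSS ovaries, at a log2 fold change of 0.60 (adjusted p = 0.0298, SE 0.18). Its control libraries, with 18.1, 24.5 and 18.95 FPKM at day 89 and 14.2, 19.6 and 11.6 FPKM at day 7, overlapped through control 51. Insig1 had 58.6, 14.7, 49.4 and 25.8 FPKM at day 89, against 5.86, 15.04, 17.5 and 18.2 FPKM at day 7, in DSS ovaries, giving a log2 fold change of 1.26 (adjusted p = 0.0426, SE 0.41). R38 lay within the day 7 range, and this call held in 9 of 23 alternatives. In control ovaries Insig1 had 20.5, 34.98 and 34.02 FPKM at day 89, against 14.2, 15.8 and 9.77 FPKM at day 7, without overlap but past no threshold, at 1.10 (adjusted p = 0.0884, SE 0.47).

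The counts depended on single libraries. In DSS ovaries 5 members passed without R29, beside 11.3% of all genes, 4 without R78, beside 11.4%, and 7 without DSS 75, beside 15.2%. In control ovaries 1 passed without control 53, beside 20.5% of all genes, 1 without R126, beside 22.2%, 2 without R124, beside 24.9%, and 7 without R123, beside 22.7%. Scarb1, Sc5d, Nsdhl and Npc1 passed in DSS ovaries under every one of the 23 alternatives, and in control ovaries Npc1 alone did. Cell type markers moved with the day as well. The luteal list summed to 3636 to 6099 FPKM at day 89, against 2172 to 3340 FPKM at day 7, in DSS ovaries, and to 4607 to 5734 FPKM at day 89, against 2870 to 3623 FPKM at day 7, in control ovaries. The theca and interstitial list summed to 1325 to 1860 FPKM at day 89, against 529 to 1305 FPKM at day 7, in DSS ovaries. Its sum in control ovaries was 1437 to 1950 FPKM at day 89, against 1135 to 1344 FPKM at day 7. The luteal list was thus higher at day 89 in both treatments without overlap, also without Cyp11a1. The theca and interstitial sum rested on Cyp11a1: its 7 other genes summed to 357 to 753 FPKM at day 89, against 286 to 362 FPKM at day 7, in DSS ovaries, and to 346 to 410.0 FPKM at day 89, against 347 to 445 FPKM at day 7, in control ovaries, with overlap in both. The oocyte list was lower at day 89 in DSS ovaries, at 67.3 to 209 FPKM, against 333 to 536 FPKM at day 7. The control ovaries overlapped, at 40.7 to 167 FPKM at day 89, against 161 to 279 FPKM at day 7. The macrophage list summed to 522 to 1025 FPKM at day 89, against 440 to 599 FPKM at day 7, in DSS ovaries, and to 341 to 637 FPKM at day 89, against 247 to 321 FPKM at day 7, in control ovaries, where the days did not overlap. The erythroid list was at 44.4 to 656 FPKM at day 89, against 409.9 to 726 FPKM at day 7, in DSS ovaries, and without overlap at 42.7 to 45.6 FPKM at day 89, against 49.9 to 309.5 FPKM at day 7, in control ovaries. The adipocyte list, with 4 of 10 genes tested, was low throughout, at 7.86 to 15.4 FPKM at day 89, against 4.40 to 8.42 FPKM at day 7, in DSS ovaries, and at 6.70 to 14.2 FPKM at day 89, against 5.33 to 6.56 FPKM at day 7, in control ovaries. The part of these markers in the members' rise was not tested.

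Libraries of one group differed widely in the synthesis enzymes, most of all at day 89. The median SD of the 18 enzymes on the log2(FPKM + 1) scale was 0.67 in DSS ovaries of day 89 and 0.48 in control ovaries of day 89, where that of all genes was 0.23 and 0.18. At day 7 it was 0.19 in DSS ovaries and 0.46 in control ovaries, where all genes had 0.23 and 0.25. Summed over the enzymes, R29 and R78 reached 648 and 556 FPKM, and R38 and R89 had 255 and 215 FPKM, in DSS ovaries. In control ovaries of day 89, R124 and R126 reached 616 and 515 FPKM and R123 had 277 FPKM. The split ran through nearly all enzymes: R29 exceeded R89 in 17 of 18, R124 exceeded R123 in 18 of 18. At day 89 Hsd17b7 had 119, 6.19, 86.9 and 8.87 FPKM in DSS ovaries and 7.14, 152 and 147 FPKM in control ovaries, so that R38, R89 and R123 were near the lowest libraries of day 7.

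**Figure D5:**
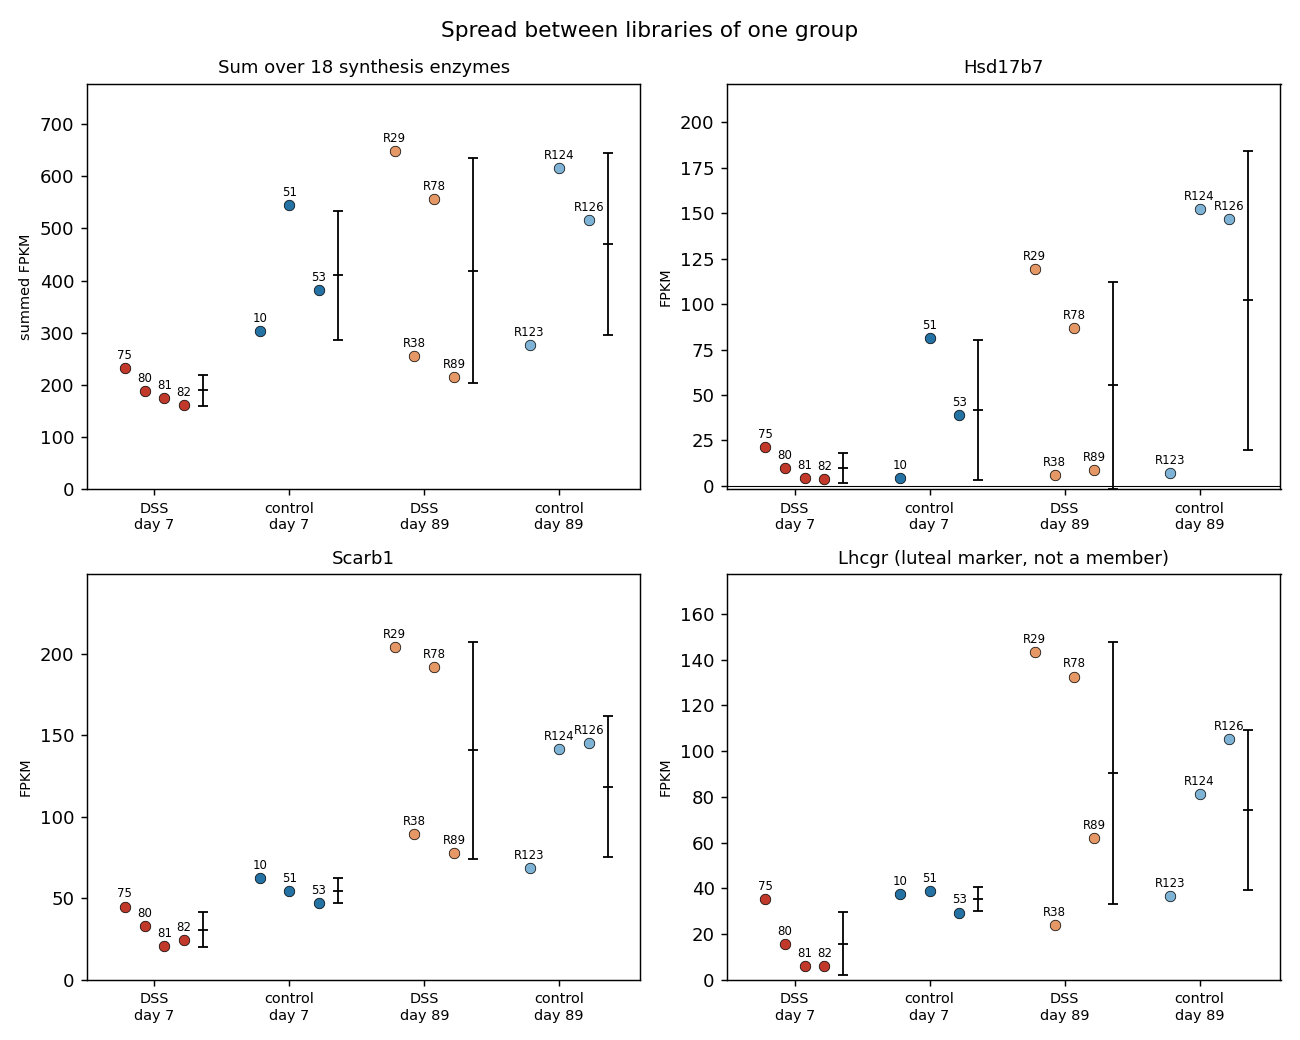
Values per library by group, with mean and SD, for the summed FPKM of the 18 synthesis enzymes and the FPKM of Hsd17b7, Scarb1 and Lhcgr, the receptor for luteinizing hormone and a luteal marker. In all 4 panels R29, R78, R124 and R126 are the highest libraries of day 89, and R123, R38 and R89 the lowest. The sum of the whole luteal list, not drawn, was highest in R38 among the DSS libraries of day 89.

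Of the 10 genes on the luteal list, Lhcgr, Prlr and Ptgfr are given here as examples that moved with this split. They do not stand for the list, whose sum did not follow the split in DSS ovaries, as given below. Lhcgr, the receptor for luteinizing hormone, had 143.5, 23.9, 132.7 and 61.9 FPKM in DSS ovaries and 36.5, 81.2 and 105.4 FPKM in control ovaries of day 89. The prolactin receptor Prlr had 44.1, 15.02, 50.4 and 19.4 FPKM in DSS ovaries and 25.2, 46.6 and 45.4 FPKM in control ovaries. In both genes R29 and R78 lay above R38 and R89, and R124 and R126 above R123. The prostaglandin F receptor Ptgfr had 50.1, 38.2, 42.3 and 14.2 FPKM in DSS ovaries and 25.4, 139.8 and 85.2 FPKM in control ovaries. The same libraries lay above and below. The luteal list as a whole, which holds Scarb1, did not follow the split. In DSS ovaries of day 89 its sum was 5824, 6099, 5657 and 3636 FPKM, highest in R38 and lowest in R89. Among the controls of day 89 it was lowest in R123. The sum of the theca and interstitial list, which shares Cyp11a1 with the luteal list, followed the split. It was 1810, 1325, 1860 and 1558 FPKM in DSS ovaries and 1437, 1950 and 1744 FPKM in controls. Without Cyp11a1, the 7 other genes of the list did not follow the split. They summed to 357 to 753 FPKM in DSS ovaries, highest in R89, and to 346 to 410.0 FPKM in controls, lowest in R124. The granulosa list ran against the split in DSS ovaries, at 2017, 2536, 1910 and 3609 FPKM. In controls it ran with the split, at 1654, 2559 and 2124 FPKM. The part of these cell types in the spread of the enzymes was not tested.

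Neighbouring pathways were counted in the same fits. In neither comparison of DSS with control did a gene of the 6 lists pass the threshold. At day 7, the 13 fatty acid genes known to answer to SREBP1 had 11 fold changes below 0 with a median of -0.52, led by Gpam at -0.95 (adjusted p = 0.0817), Elovl6 at -1.83 (adjusted p = 0.0872) and Me1 at -1.08 (adjusted p = 0.164). The 13 genes of steroid hormone synthesis had 9 below 0 with a median of -0.74, led by Star, the carrier of cholesterol into mitochondria, at -1.91 (adjusted p = 0.0885). The isoprenoid branch, which draws on the same mevalonate, had 9 of 12 below 0 with a median of -0.24. The lists of SREBP processing (14 genes), lipid droplets (13 tested of 16) and sterol transfer and LXR genes (21) had medians of 0.03, 0.04 and 0.01.

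Between day 89 and day 7, 8 of 13 fatty acid genes rose in DSS ovaries and 4 of 13 in control ovaries. Fatty acid synthase (Fasn) rose by 1.22 (SE 0.17, adjusted p = 0.00147) in DSS and 1.14 (SE 0.19, adjusted p = 0.00113) in control ovaries on the log2 scale. Scd1, the stearoyl-CoA desaturase, rose by 2.33 (adjusted p = 0.00182) in DSS and 1.47 (adjusted p = 0.0167) in control ovaries, and Acly, which supplies cytosolic acetyl-CoA, by 1.70 (adjusted p = 0.00225) in DSS and 1.71 (adjusted p = 0.00187) in control ovaries. Of steroid hormone synthesis 6 of 13 rose in DSS ovaries, led by Star at 2.27 (adjusted p = 0.00319), and 1 of 13, Por, in control ovaries. Of SREBP processing 2 of 14 rose in DSS and 6 of 14 in control ovaries, with Rnf139, a ubiquitin ligase, leading in controls at 1.32 (adjusted p = 0.00146). Of the lipid droplet list 3 of 13 rose in each treatment, and 1 fell in controls. Its Lipa, the lysosomal acid lipase that frees cholesterol from esters, rose by 1.09 (adjusted p = 0.00544) in DSS and 1.28 (adjusted p = 0.00246) in control ovaries. Of sterol transfer and LXR genes 4 of 21 rose in DSS and 5 of 21 in control ovaries. In the isoprenoid branch none of 12 passed in DSS ovaries and 1, Pdss2, fell in control ovaries. These shares stand beside 21.4% of all genes called in DSS and 31.8% in control ovaries.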

How the data were processed

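RNA-seq measured gene expression in 14 ovary libraries. The deposited table holds FPKM per gene and library; per the submitters' processing notes the reads were aligned with HISAT2 2.0.5 to GRCm38, while no source used here names the counting tool, annotation release or strand handling. Libraries were grouped by the labels as DSS or control and by day. FPKM steps gave whole reads for 100% of values below 300 steps, within 0.01 of a read, and 15256018 to 18505144 reads per library. Each library's implied total was 0.852 to 1.07 of the recovered total. The authors' further scaling of each library was kept.

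Tests used limma 3.58.1 in R 4.3.3 with a trended prior on log2(FPKM + 1), a pseudocount of 1, for the 18006 genes with at least 0.5 FPKM in at least 3 libraries. A fold change on this scale understates the change of low genes. Two-sided p-values took the Benjamini-Hochberg adjustment over all genes, with a threshold of 0.05. Scripts were tested on simulated data. Every member was to be accounted for, and members past the threshold, or with the 6 smallest p in a comparison, were to be given in full; up to 3 genes per neighbouring list were to be named. The members and lists were chosen with earlier results of these data known. Alternatives changed the pseudocount, filter, scaling, test (voom with trimmed-mean factors on recovered reads), libraries and covariates. Gene positions come from GENCODE M21 on GRCm38 by gene ID, since those in the table differ for most members. Adipocyte, adrenal, liver and retinal lists were also checked: Lep reached 0.0169 FPKM, Cyp21a1 0.106 FPKM and Alb 0.919 FPKM. Adipocyte markers, 4 of 10 tested, summed to 4.40 to 15.4 FPKM, liver markers, 3 of 8 tested, to 1.20 to 6.36 FPKM, adrenal markers, 3 of 6 tested and mostly Nr5a1, to 76.8 to 137.6 FPKM, and granulosa markers, 10 of 10 tested, to 834 to 3609 FPKM.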

Additional observations from a re-analysis of the deposited data

Results flagged for a closer look

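In the groups of 4 libraries, 60 member groups were examined for a library far from the other 3, and 4 stood out; chance marks about 1 in 20. In DSS ovaries of day 7, Pmvk was lowest in library 80, at 3.86 FPKM, where the other 3 had 6.35 to 6.82 FPKM. In the same group Mvd was highest in library 75, at 21.9 FPKM, where the others had 9.61 to 11.1 FPKM. Npc2 was also highest in library 75, at 93.4 FPKM, where the others had 43.8 to 45.7 FPKM. Library 75 is the DSS library with a mitochondrial share of 14.2%. Its theca and interstitial markers summed to 1305 FPKM, where the other 3 had 529 to 760 FPKM. That gap rested on Cyp11a1: the 7 other genes of the list summed to 286 to 362 FPKM over all 4 DSS libraries of day 7. The granulosa markers of library 75 summed to 834 FPKM, where the other 3 had 2244 to 3477 FPKM. The part of the mitochondrial share or of cell types in these values was not tested. In DSS ovaries of day 89, Abcg1 was highest in library R29, at 9.38 FPKM, where the others had 3.72 to 4.53 FPKM.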

How the results depend on the processing

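The number of members called between DSS and control at day 7 was 0 in limma, 4 without the 3 libraries of high mitochondrial share, and 0 to 4 with 1 library left out (4 without DSS 75). All genes called there numbered 6, against 2 with a pseudocount of 0.1, 2 with FPKM of at least 1 in 7 libraries, 1 with libraries scaled to their own read total, 0 with voom, 0 with only the groups compared, 20 with a term for the high mitochondrial share, 915 without those 3 libraries, and 0 to 1221 with 1 library left out (1221 without DSS 75, 41 without control 10, 14 without R38). At day 89 no member was called under any alternative, and the 1 gene became 5 without a filter and 0 with the other pseudocount, the stricter filter, voom, only the groups compared, the length trend removed or the 3 libraries left out, and 0 to 2 with 1 library left out. For day 89 against day 7 in control ovaries, 4 members became 7 with only the groups compared, 2 without the 3 libraries, and 1 to 7 with 1 library left out (1 without control 53 or R126, 2 without R124, 7 without R123). All genes there, 5732, became 3141 with the mitochondrial term, 3231 without the 3 libraries and 3695 to 6463 with 1 library left out (lowest without control 53). In DSS ovaries 12 members became 7 without a filter and 4 to 14 with 1 library left out, and all genes, 3860, became 2034 to 4930 (2034 without R29, 2061 without R78, 2510 without DSS 81). For the change of the DSS effect, no member was called under any alternative run, and the count of genes was 0, against 2 without a filter, 3 without the 3 libraries and 0 to 41 with 1 library left out (41 without DSS 75); the fit on only the groups compared does not exist for it. Members without overlap at day 7 numbered 12 lower, beside 5.87% of all genes, against 26 without the 3 libraries (where 37.4% of all genes did so). In control ovaries 8 were higher at day 89, beside 22.8% of all genes. With 1 library left out they numbered 8 to 13, beside 24.8% to 29.7% of all genes. These counts without overlap were added after seeing the data. The causes were not tested. No single member named changed sign in a comparison where it was called. Between days, the calls of the 12 members in DSS ovaries were kept in 231 and lost in 45 of 276 refits, and those of the 4 in control ovaries were kept in 77 and lost in 15 of 92. Of the members with the 6 smallest p in control ovaries, those not called were gained in 7 refits, Scarb1 in 5 and Tm7sf2 in 2. Insig1 and Sqle were gained there in 3 refits each, and Npc2, Abca1, Srebf1 and Insig2 in 1 each. For DSS at day 7, members not called were gained in 8 refits. At 28 to 77.5 reads (lowest and median library), Fdps had the least depth. No paired analysis was possible because no replicate number recurs between groups.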

Other observations

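A related enzyme outside the set was also measured. Acat1, the mitochondrial thiolase, ranged over 24.4 to 42.5 FPKM across the 14 libraries, and Acat2 over 8.24 to 32.2 FPKM. Acat1 was chosen after its values were seen, and no comparison was made with it.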
